A study of Mus musculus with 9 samples.

Results

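The receptors through which retinal neurons respond to glutamate, GABA and glycine were followed in mouse retinas 2 days after laser-induced retinal vein occlusion (RVO). Their genes were chosen by symbol from the table of counts per gene: the ionotropic glutamate receptor subunits (AMPA, kainate, delta and NMDA types), the metabotropic glutamate receptors without Grm6, the GABA-A, GABA-C rho and GABA-B receptor subunits, and the glycine receptor subunits. Of 48587 listed names that are not spike-in controls, 54 fitted these symbols, and 52 were left after Grm6 and the antisense gene Grin1os were set aside. Of these 52, 50 had 10 or more counts in at least 3 of the 9 samples. Gabra6, a GABA-A alpha subunit best known from the cerebellum, had 0 counts in all 9 samples, where a count of 0 allows a level of up to 0.103 to 0.242 CPM (counts per 1000000 counts of a sample; 3 counts of the sample's total, counting error only). Gabrp, the GABA-A pi subunit, had 2 counts in RVO replicate 1, 1 in RVO replicate 3 and 0 in the others. The 50 genes comprised 25 glutamate receptor genes, 24 GABA and glycine receptor genes and Grid2ip, whose symbol fits the pattern but which encodes a scaffold protein and no receptor.

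RNA was sequenced from 9 samples of C57BL/6J mice at an age of 12 weeks, each a pool of 6 retinas, so that n counts pools. In 3 RVO samples, the large veins had been closed by laser after an intraperitoneal injection of the photosensitizer eosin Y at 200 mg/kg, with 50 mW, a spot of 50 µm and 2.5 s per application. In 3 control samples the same mice's fellow eyes had received the same laser scheme between the large vessels, again after eosin Y. The 3 untreated samples came from mice without laser treatment. Control eyes thus shared the eosin Y, the anesthesia and the laser scheme with the RVO eyes. Whether untreated mice were anesthetized or received eosin Y is not given in the sources used here. Veins in this model can reopen within days, and the number of veins still closed in each pool is not given in the sources used here.

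Glutamate is the excitatory transmitter of photoreceptors, bipolar cells and ganglion cells, whereas GABA and glycine are the inhibitory transmitters of amacrine cells, and GABA is also used by horizontal cells. AMPA, kainate and NMDA receptors are cation channels, GABA-A, GABA-C and glycine receptors are chloride channels, and metabotropic glutamate and GABA-B receptors act through G proteins. Photoreceptor terminals release glutamate onto AMPA and kainate receptors of OFF bipolar and horizontal cells. Bipolar axon terminals carry GABA-C receptors, and ganglion and amacrine cells carry AMPA, NMDA, GABA-A and glycine receptors. Most of these receptors therefore sit on cells of the inner retina.

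Promoter sequences are shown for 4 genes on which the results turn. Gabrr1 and Gabrr2 lie side by side and encode rho subunits. Glra3 had the largest decrease in RVO eyes, and Grik4 had the largest increase. Each sequence runs from 250 bases before to 50 bases after the gene's start and was taken from RefSeq (GRCm38.p6). They lie at chr4:33132306-33132605 (Gabrr1, plus strand), chr4:33062862-33063161 (Gabrr2, plus strand), chr8:55940168-55940467 (Glra3, plus strand) and chr9:42944322-42944621 (Grik4, minus strand). Capitals mark the GC box letters CCGCCC or GGGCGG and the OTX and CRX core letters TAATCC or GGATTA, each on either strand. Where matches overlap, as near the end of the Gabrr1 sequence, only the first is marked and counted.
Gabrr1: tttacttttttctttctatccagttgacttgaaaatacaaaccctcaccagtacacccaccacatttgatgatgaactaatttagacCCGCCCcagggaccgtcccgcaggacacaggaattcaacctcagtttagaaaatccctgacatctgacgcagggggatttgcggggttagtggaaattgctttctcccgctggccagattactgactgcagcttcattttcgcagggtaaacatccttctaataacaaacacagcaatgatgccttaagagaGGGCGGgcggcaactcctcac
Gabrr2: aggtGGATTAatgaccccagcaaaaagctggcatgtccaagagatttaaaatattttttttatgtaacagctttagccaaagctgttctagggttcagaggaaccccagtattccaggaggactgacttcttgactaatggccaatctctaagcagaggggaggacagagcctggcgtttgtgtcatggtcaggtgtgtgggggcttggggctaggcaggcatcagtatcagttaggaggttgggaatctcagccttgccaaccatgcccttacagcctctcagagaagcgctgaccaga
Glra3: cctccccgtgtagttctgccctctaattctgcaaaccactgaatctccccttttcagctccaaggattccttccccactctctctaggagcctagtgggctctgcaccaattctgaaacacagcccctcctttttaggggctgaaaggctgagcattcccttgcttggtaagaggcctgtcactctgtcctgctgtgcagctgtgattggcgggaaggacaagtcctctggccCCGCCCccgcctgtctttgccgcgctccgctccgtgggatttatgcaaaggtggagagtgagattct
Grik4: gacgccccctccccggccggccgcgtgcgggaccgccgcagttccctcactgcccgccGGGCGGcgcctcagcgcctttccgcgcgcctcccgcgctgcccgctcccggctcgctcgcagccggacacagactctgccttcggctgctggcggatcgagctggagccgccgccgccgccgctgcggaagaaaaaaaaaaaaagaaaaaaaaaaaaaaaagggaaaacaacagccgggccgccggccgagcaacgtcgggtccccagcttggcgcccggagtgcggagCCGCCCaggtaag
Counted without overlaps, the Gabrr1 promoter held 2 GC boxes, that of Glra3 1 and that of Grik4 2. That of Gabrr2 held 1 OTX and CRX core and no GC box. A promoter was listed for 34 of the receptor genes, and 22 of them (64.7%) held a GC box, against 38.2% of all 27025 genes listed. The OTX and CRX core was found in 2 of the 34 (Gabra2 and Gabrr2) and in 8.14% of all promoters. The AP-1 letters TGAGTCA or TGACTCA were found in 0 of the 34 and in 5.95% of all promoters. These are matches of letters in this window only.

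Libraries held 12377572 to 15245869 counts in untreated, 18897218 to 23419497 in control and 21022997 to 28993921 in RVO eyes. RVO samples differed more among themselves than the others did: the SD of a receptor gene's log2 CPM had a median of 0.64 in RVO, 0.09 in control and 0.11 in untreated samples. RVO replicate 2 had the highest of the 3 RVO values in 46 of 50 receptor genes, and replicate 1 the lowest in 41 and replicate 3 in 5. Replicate 2 was also set apart by RNA of the lens, as its 8 lens markers summed to 5826 CPM, against 189 and 520.0 CPM in the other RVO samples, 217 to 2952 CPM in control and 2.79 to 24.0 CPM in untreated samples. The number of the 50 receptor genes that passed the test in RVO eyes, and their median, are therefore also given without it. The same holds for Gria1 and Gabrd. Values of other single genes include replicate 2 unless stated otherwise, and some that did not pass may pass without it.

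In RVO eyes at d2, most receptor genes were expressed at a fraction of their untreated level. Between RVO and untreated eyes, 37 of the 50 were lower, 1 was higher (Grik4) and 12 did not pass the test (quasi-likelihood test of edgeR over 16380 genes, with a call at a Benjamini-Hochberg adjusted p under 0.01 here and in what follows). Among all genes tested, 24.6% were lower and 27.4% higher. The median log2 fold change of the receptor genes was -1.62, a 3.07-fold lower expression, with values from -2.86 to 1.22, whereas the median of all genes tested was 0.01. At an adjusted p under 0.05, 45 were lower and 2 higher, against 32.5% and 34.4% of all genes. In 44 receptor genes each RVO sample was below each untreated sample, as in 37.6% of all genes. Without RVO replicate 2, 45 were lower (31.0% of all genes) and 1 higher (33.3%), with a median of -2.03. Among the genes described below, the calls of Grid1, Grik1, Grm2, Grm3, Grm7, Gabrb2, Gabrq, Gabrr3, Gabbr1 and Glra1 were lost when RVO replicate 3 or any 1 untreated sample was left out. In whole retinas, fewer cells of a type and less RNA per cell cannot be told apart.

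Laser treatment between the vessels was followed by smaller changes. Between control and untreated eyes, 29 of 50 receptor genes were lower and 4 higher (Gria1, Grik4, Grik5 and Grin1), among 25.2% lower and 27.2% higher of 16066 genes tested. At an adjusted p under 0.05, 31 were lower and 8 higher, against 31.4% and 33.0% of all genes, and at an unadjusted p under 0.05, 33 were lower and 8 higher, against 33.0% and 34.6%. Their median log2 fold change was -0.49, from -1.16 to 0.77, beside 0.01 for all genes. These counts depended on the processing. When trends with GC content and length were removed from each sample, 16 were lower and 1 higher (Gria1), with a median of -0.18, among 17.3% lower and 20.4% higher of all genes. With libraries scaled by their totals alone, which moved the median of all genes from 0.01 to 0.19, 21 were lower and 7 higher, among 15.5% and 36.7% of all genes. A fit of all 9 samples, in which the wider spread of RVO samples is shared, gave 7 lower and 2 higher, with a median of -0.51. The share of all genes called in that fit was not counted, so these 2 counts cannot be set against it.

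RVO eyes were then compared with control laser-treated eyes, which had received the same laser scheme between the vessels. Most receptor genes had lower values in RVO eyes here too. With the same test, 0 of 50 receptor genes passed an adjusted p under 0.01 in either direction, where 0.634% of 16874 genes were lower and 2.7% higher. At an adjusted p under 0.05, 42 were lower and 0 higher, against 17.1% lower and 17.5% higher among all genes. At an unadjusted p under 0.05, 46 were lower and 2 higher, against 22.9% and 24.1% of all genes. DESeq2's Wald test gave 37 lower and 0 higher at an adjusted p under 0.01 (12.9% of all genes lower). The log2 fold changes had a median of -1.13, from -1.74 to 0.72, beside 0.02 for all genes. In 46 receptor genes each RVO sample was below each control sample, as in 25.8% of all genes. Without RVO replicate 2, 44 were lower at an adjusted p under 0.01 (19.3% of all genes), with a median of -1.61. Against the control mean, the median log2 difference over the receptor genes was -1.73 in RVO replicate 1, -0.54 in replicate 2 and -1.39 in replicate 3, and 48, 47 and 48 of the 50 genes were below it. All 3 RVO samples thus lay on the same side, at different distances.

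**Figure D1:**
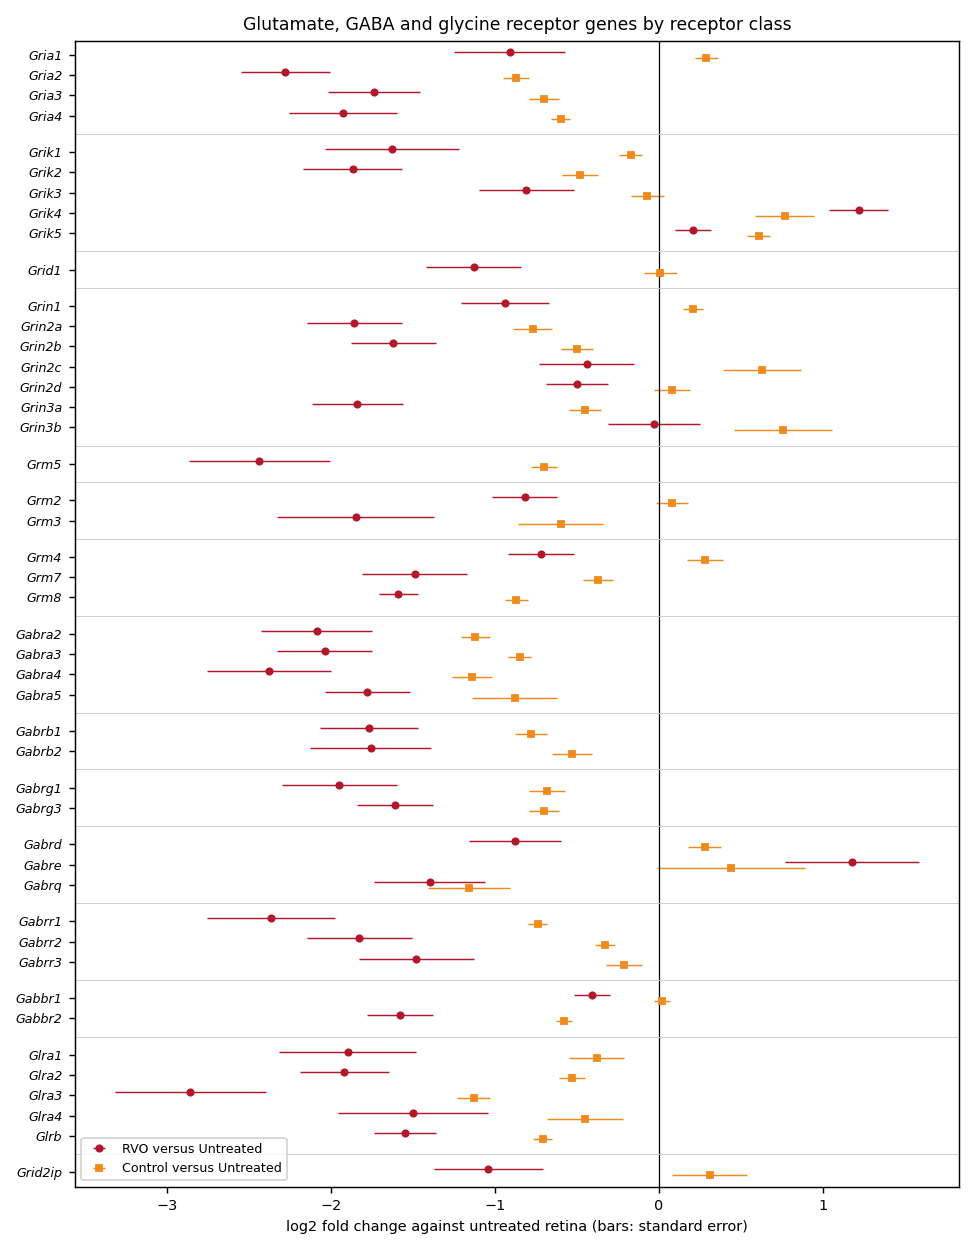
Log2 fold changes of 45 receptor genes against untreated retinas, grouped by receptor class, with circles for RVO and squares for control laser-treated eyes and bars for the standard error of the fit. The circles reach from -2.86 (Glra3) to 1.22 (Grik4) and most lie left of their squares, while Grik4, Grik5 and Gabre lie right of 0 in both comparisons, Grik5 only as long as GC and length trends are kept.

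Levels of different genes were compared per length, as CPM per kb of summed exons. In untreated retinas, the rho subunits Gabrr1 and Gabrr2 were highest, at 62.9 ± 3.84 (SD, n = 3) and 43.7 ± 0.305 CPM per kb. Gabrr3, also a rho subunit, was at 3.17 ± 0.206 CPM per kb. Of the other genes given here, Gabbr1 (28.3 ± 0.703) and Glrb (21.8 ± 1.22) came next. Grik1 was the highest glutamate receptor gene at 20.1 ± 1.37 CPM per kb, which did not differ from Gabra3 (20.6 ± 1.76) or Gria4 (18.5 ± 1.12) beyond the spread. At the other end, Gabre was at 0.0809 ± 0.0476 CPM per kb. In RVO eyes the order was another: Gabbr1 was highest at 20.8 ± 3.41, followed by Grik5 at 15.6 ± 2.07, Gabrr2 at 12.1 ± 6.24 and Gabrr1 at 11.9 ± 7.36 CPM per kb.

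**Figure D2:**
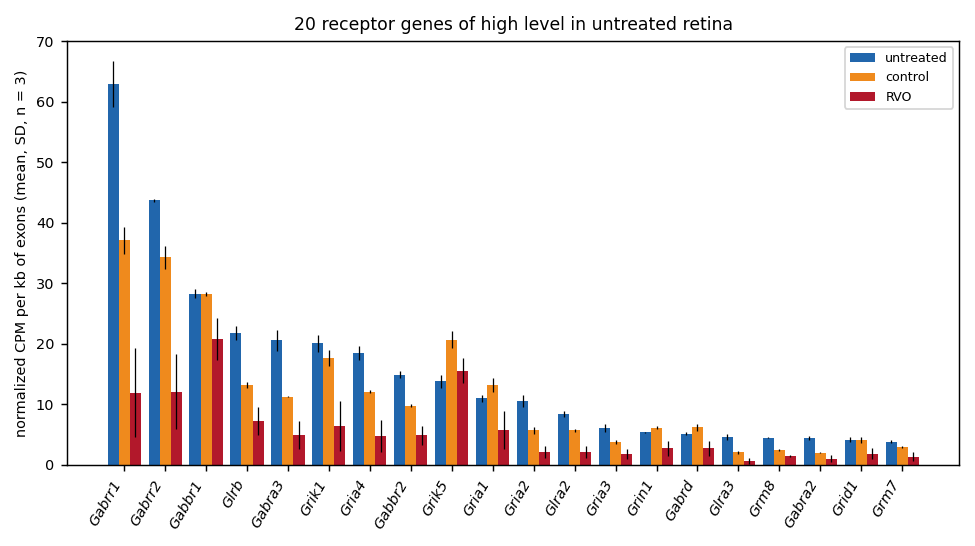
Normalized CPM per kb of exons of 20 receptor genes with a high level in untreated retinas, with bars for the mean and lines for the SD of 3 pools in untreated, control and RVO eyes. Gabrr1 falls from 62.9 to 11.9 CPM per kb between untreated and RVO eyes, whereas Gabbr1 goes from 28.3 to 20.8.

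AMPA receptors carry most of the fast excitation in the retina, and all their 4 genes were measured. Gria2, whose subunit keeps calcium out of the channel, had 175.7, 170.4 and 146.9 CPM in the 3 untreated, 99.7, 80.7 and 85.8 in the 3 control and 22.1, 50.0 and 27.4 in the 3 RVO samples. The 3 groups did not overlap. Its log2 fold change was -2.28 ± 0.27 (SE) between RVO and untreated eyes, 4.86-fold lower (edgeR adjusted p = 1.87e-04), and -0.87 ± 0.08 between control and untreated eyes (edgeR adjusted p = 1.65e-06). With GC and length trends removed, these values were -1.31 (adjusted p = 0.00105) and -0.12 (adjusted p = 0.138), and the call in control eyes was lost. Gria4 (-1.93 ± 0.33) and Gria3 (-1.74 ± 0.28) were also lower in RVO than in untreated eyes.

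Gria1, which is also an AMPA subunit, went the other way in control eyes. It had 69.6, 66.3 and 63.1 CPM in untreated, 76.4, 88.3 and 74.8 in control and 17.6, 55.1 and 31.1 in RVO samples, so that control samples were the highest and RVO samples the lowest, without overlap. Control eyes were higher than untreated eyes by a log2 fold change of 0.29 ± 0.07 (edgeR adjusted p = 0.00403). The values in RVO eyes were -0.91 ± 0.34 against untreated (edgeR adjusted p = 0.0407) and -1.21 ± 0.35 against control eyes (edgeR adjusted p = 0.0341), and without RVO replicate 2 they were -1.41 and -1.74 (adjusted p = 4.03e-06 and 1.12e-04). Gria1 did not pass the test in control against untreated eyes without untreated replicate 2 or 3 or without control replicate 2 (log2 fold changes 0.27, 0.24 and 0.20). Counting all kinds of alternatives, it passed there under 11 of 15.

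**Figure D3:**
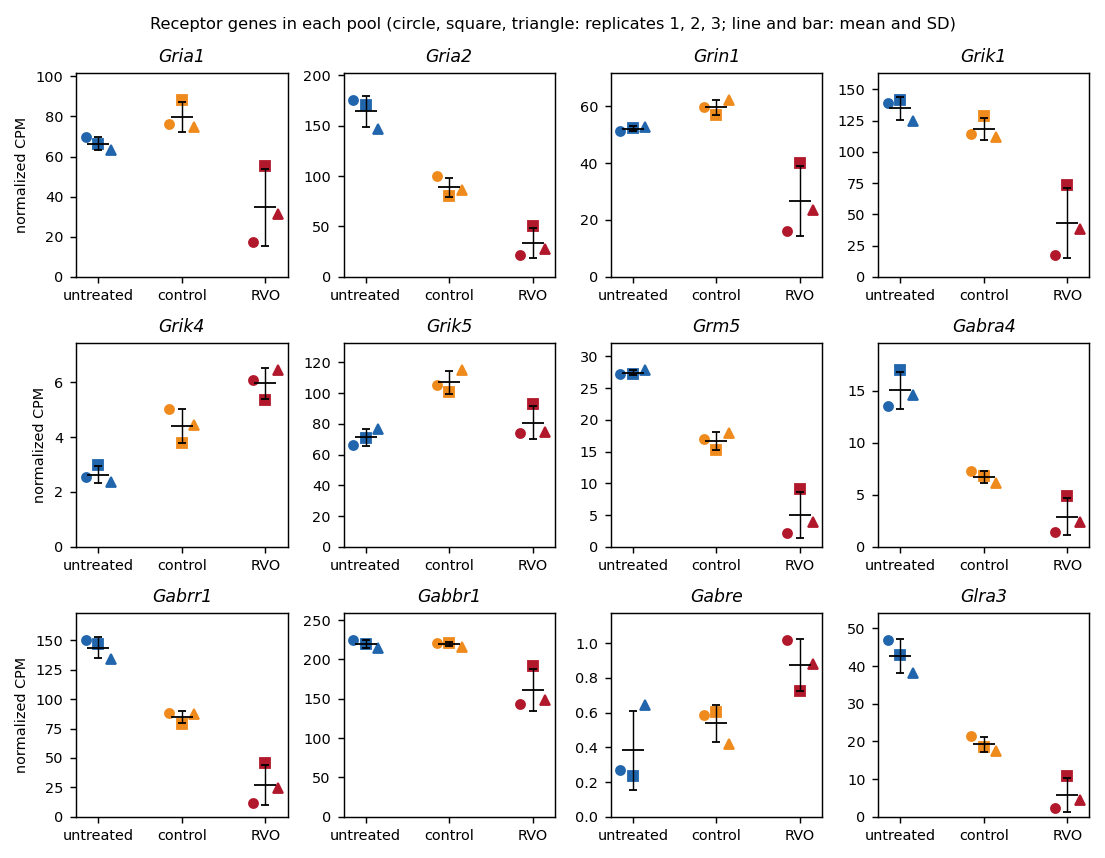
Normalized CPM of 12 receptor genes in each pool of untreated, control and RVO eyes, with circles, squares and triangles for replicates 1, 2 and 3 and lines with bars for the mean and SD. RVO replicate 2 is the highest RVO sample in most panels, and Grik4 and Gabre are highest in the 3 RVO samples.

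Kainate receptor genes changed in both directions in RVO against untreated eyes, with log2 fold changes from -1.87 (Grik2) to 1.22 (Grik4). Grik1, the subunit that OFF bipolar cells use for their cone input, had 139.0, 141.7 and 124.6 CPM in untreated, 114.4, 128.7 and 112.3 in control and 17.8, 73.2 and 38.0 in RVO samples. Untreated and control samples overlapped, and all RVO samples were below both. Its log2 fold change in RVO eyes was -1.63 ± 0.41 against untreated (edgeR adjusted p = 0.0082) and -1.47 ± 0.43 against control eyes (edgeR adjusted p = 0.0342). The call against untreated eyes was lost with libraries scaled by their totals alone (-1.42, adjusted p = 0.0123) and with GC and length trends removed (-1.38, adjusted p = 0.0184). Grik2 was lower in RVO and in control than in untreated eyes, by log2 fold changes of -1.87 ± 0.30 and -0.48 ± 0.11, although they were -1.01 and 0.21 with GC and length trends removed. Grik3 had -0.81 ± 0.29 in RVO against untreated eyes, which did not pass the test (edgeR adjusted p = 0.0351).

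Grik4 and Grik5 encode the high-affinity kainate subunits, which form channels only together with Grik1, Grik2 or Grik3. Grik4 had 2.54, 2.97 and 2.36 CPM in untreated, 5.02, 3.79 and 4.44 in control and 6.08, 5.35 and 6.46 in RVO samples (28 to 191 counts). The groups did not overlap and were ordered opposite to Gria2. RVO eyes had 2.32-fold more Grik4 than untreated eyes (log2 fold change 1.22 ± 0.18, edgeR adjusted p = 5.71e-04) and passed the test under each of 15 alternatives, with adjusted p between 1.10e-05 and 0.00452. In control eyes it was 1.71-fold higher than in untreated eyes (log2 fold change 0.77 ± 0.18, edgeR adjusted p = 0.00254). That call was lost when untreated replicate 1 or 3 or control replicate 1 was left out (0.74, 0.68 and 0.68) and with GC and length trends removed (0.62). RVO and control eyes differed by 0.44 ± 0.16 (edgeR adjusted p = 0.073).

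Grik5 had 66.1, 70.5 and 76.9 CPM in untreated, 105.3, 100.5 and 115.2 in control and 74.2, 93.0 and 74.7 in RVO samples. Control samples were above all others, and RVO and untreated samples overlapped. The increase in control eyes had a log2 fold change of 0.61 ± 0.07 (edgeR adjusted p = 7.26e-06), but it was -0.01 with GC and length trends removed. In RVO eyes the value against untreated eyes was 0.21 ± 0.11 (edgeR adjusted p = 0.111), and it was -0.33 with these trends removed. Grik4 kept its sign in both comparisons under that alternative, and Grik5 did not.

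Grid1 encodes a delta receptor, which resembles ionotropic glutamate receptors but binds glycine and D-serine. It had 22.3, 26.0 and 26.4 CPM in untreated, 28.2, 22.6 and 23.6 in control and 8.28, 17.4 and 7.87 in RVO samples. Untreated and control samples overlapped, and all RVO samples were lower. The log2 fold change was -1.13 ± 0.29 in RVO (edgeR adjusted p = 0.00804) and 0.01 ± 0.10 in control against untreated eyes. The call in RVO eyes was lost with GC and length trends removed (-1.09, adjusted p = 0.0112) and with libraries scaled by their totals alone (-0.92, adjusted p = 0.0167). Exons of Grid1 overlap Gm27617 on the same strand over 91 bases. Grid2ip, the scaffold, had 0.733, 1.32 and 0.616 CPM in RVO, 2.67, 2.07 and 2.13 in control and 1.45, 2.19 and 1.93 in untreated samples, and did not pass the test in any comparison.

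NMDA receptors need Grin1, the subunit common to all of them, together with glutamate-binding Grin2 and glycine-binding Grin3 subunits. Grin1 had 51.2, 52.2 and 52.9 CPM in untreated, 59.8, 56.8 and 62.3 in control and 16.3, 40.1 and 23.6 in RVO samples. As for Gria1, control samples were the highest and RVO samples the lowest. The log2 fold change was 0.21 ± 0.06 between control and untreated eyes (edgeR adjusted p = 0.00688). Between RVO and untreated eyes it was -0.94 ± 0.27 (edgeR adjusted p = 0.0156). Between RVO and control eyes it was -1.16 ± 0.28 (edgeR adjusted p = 0.0202). Over 15 alternatives, RVO against untreated eyes had -1.35 to -0.67 and passed the test under 7. RVO against control eyes had -1.60 to -0.91 and passed under 4 of 15. The increase in control eyes was not stable: it was -0.12 with GC and length trends removed, it did not pass DESeq2's test (0.20) and it passed when control replicate 2 was left out (0.24) but not without any of the other 5 samples (0.18 to 0.22). Exons of Grin1 overlap its antisense gene Grin1os over 1307 bases, and whether the counting used the strand is not given in the sources used here.

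The other NMDA genes divided into separate sets. Grin2a (-1.86 ± 0.29), Grin3a (-1.84 ± 0.28) and Grin2b (-1.62 ± 0.26) were lower in RVO than in untreated eyes, and each was lower in control than in untreated eyes too (-0.77, -0.45 and -0.50). With GC and length trends removed, the 3 calls in control eyes were lost (-0.38, -0.05 and 0.08) and that of Grin2b in RVO eyes as well (-0.77, adjusted p = 0.0129). Grin2c, Grin2d and Grin3b did not pass the test in either comparison. Their log2 fold changes in RVO against untreated eyes were -0.44 ± 0.29, -0.50 ± 0.19 and -0.03 ± 0.28. Grin3b was listed with 8 to 36 counts per sample, and its exons overlap Tmem259 on the opposite strand over 1059 bases.

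Metabotropic glutamate receptors of group I, such as Grm5, raise calcium through Gq proteins. Grm5 had 27.2, 27.3 and 27.9 CPM in untreated, 17.0, 15.2 and 17.9 in control and 2.10, 9.09 and 3.91 in RVO samples, again without overlap. Untreated eyes had 5.42-fold more Grm5 than RVO eyes (log2 fold change -2.44 ± 0.43, edgeR adjusted p = 0.00131), and its value against control eyes, -1.74 ± 0.45, was the lowest of all 50 receptor genes (edgeR adjusted p = 0.0236).

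Groups II and III of the metabotropic receptors reduce cyclic AMP and often sit on transmitter-releasing terminals. Grm8 had 46.2, 44.0 and 44.3 CPM in untreated, 25.6, 23.3 and 23.7 in control and 13.3, 17.2 and 13.4 in RVO samples, with less spread among RVO samples than most receptor genes. Against untreated eyes, Grm8 had -1.59 ± 0.12 in RVO (edgeR adjusted p = 2.30e-05) and -0.87 ± 0.07 in control eyes (edgeR adjusted p = 6.43e-07). The value in control eyes was -0.48 with GC and length trends removed (adjusted p = 1.09e-04). Grm7 was lower in both as well (-1.49 ± 0.32 and -0.37 ± 0.09), but its call in control eyes was lost with these trends removed (-0.22) and with libraries scaled by their totals alone (-0.20). Grm2 (-0.82 ± 0.20) and Grm3 (-1.85 ± 0.48, 5 to 22 counts per sample) were lower in RVO eyes and did not pass the test in control eyes. With libraries scaled by their totals alone neither passed in RVO eyes (-0.61 and -1.65), nor did Grm3 with GC and length trends removed (-1.83). Grm4 had 0.28 ± 0.11 in control and -0.72 ± 0.20 in RVO against untreated eyes, and neither passed. The value in control eyes was -0.26 with GC and length trends removed.

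GABA-A receptors are built of alpha and beta subunits, most often together with a gamma subunit. Gabra4, an alpha subunit, had 13.5, 17.0 and 14.6 CPM in untreated, 7.28, 6.82 and 6.11 in control and 1.40, 4.84 and 2.37 in RVO samples. The 3 groups did not overlap. Gabra4 was 5.20-fold lower in RVO (log2 fold change -2.38 ± 0.38, edgeR adjusted p = 8.08e-04) and 2.21-fold lower in control than in untreated eyes (-1.14 ± 0.12, edgeR adjusted p = 4.32e-06). Exons of Gabra4 and Gabrb1 overlap over 46 bases on opposite strands.

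Gabra2, Gabra3 and Gabra5, which also encode alpha subunits, followed the same order. Log2 fold changes between RVO and untreated eyes were -2.09 ± 0.34 for Gabra2, -2.04 ± 0.29 for Gabra3 and -1.78 ± 0.26 for Gabra5, all called. In control eyes, Gabra2 had -1.12 ± 0.09 and Gabra3 had -0.85 ± 0.07, both called, and Gabra5 had -0.88 ± 0.26 with an edgeR adjusted p of 0.0104. With GC and length trends removed, Gabra2 had -1.17 in RVO and -0.39 in control eyes, both still called. Gabra5 was listed with 12 to 27 counts per sample, and its exons overlap Gm9962 on the opposite strand over 148 bases.

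The beta subunit genes Gabrb1 and Gabrb2 were lower in RVO eyes, with log2 fold changes of -1.77 ± 0.30 and -1.76 ± 0.37. In control eyes they had -0.78 and -0.53, both called lower. All 4 calls were lost with GC and length trends removed, where Gabrb1 had -0.87 and Gabrb2 -1.34 in RVO eyes (adjusted p = 0.0176 and 0.0122) and -0.07 and -0.14 in control eyes (adjusted p = 0.566 and 0.362). Gamma subunits hold GABA-A receptors at synapses. Gabrg1 had 10.6, 9.85 and 9.93 CPM in untreated, 6.24, 5.91 and 6.49 in control and 1.34, 4.16 and 2.29 in RVO samples, in 3 separate groups. In RVO eyes Gabrg1 (-1.95 ± 0.35) and Gabrg3 (-1.61 ± 0.23) were lower. The call of Gabrg1 was lost with GC and length trends removed (-0.59, edgeR adjusted p = 0.0975). In control eyes Gabrg1 had -0.68 ± 0.11 and was called lower, but it had 0.30 with GC and length trends removed, and Gabrg3 had -0.70 ± 0.09. With these trends removed Gabrg3 had -0.97 in RVO eyes, still called, and -0.16 in control eyes, no longer called.

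The delta, theta and epsilon subunits of GABA-A receptors did not share one direction. Gabrd, of receptors outside synapses, had 14.3, 14.5 and 15.7 CPM in untreated, 18.2, 16.1 and 19.3 in control and 5.13, 12.1 and 6.73 in RVO samples, the order also seen for Gria1 and Grin1. It did not pass the test against untreated eyes (-0.88 ± 0.28 in RVO and 0.28 ± 0.10 in control eyes, the latter -0.18 with GC and length trends removed). Without RVO replicate 2, the value in RVO against untreated eyes was -1.29 and passed (edgeR adjusted p = 3.86e-06). Gabrq, the theta subunit, was lower in RVO (-1.40 ± 0.34) and control eyes (-1.16 ± 0.25), with 14 to 30 counts per sample. Its call in RVO eyes was lost with GC and length trends removed (-1.18) and with libraries scaled by their totals alone (-1.19). Gabre, the epsilon subunit, had 0.272, 0.234 and 0.643 CPM in untreated, 0.588, 0.606 and 0.418 in control and 1.02, 0.722 and 0.879 in RVO samples, from 3 to 32 counts. All RVO samples were highest, and control and untreated samples overlapped. The log2 fold change of Gabre in RVO against untreated eyes was 1.18 ± 0.41 (edgeR adjusted p = 0.0311), and it passed 0.01 under none of 15 alternatives.

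GABA-C receptors, which consist of rho subunits, are found on bipolar cell terminals. Gabrr1 had 150.6, 146.7 and 133.8 CPM in untreated, 88.4, 79.1 and 87.1 in control and 12.0, 45.4 and 24.5 in RVO samples. Gabrr2 had 91.3, 92.2 and 92.5 CPM in untreated, 69.5, 70.6 and 76.8 in control and 13.8, 39.7 and 23.0 in RVO samples. Both genes showed 3 separate groups in the same order. In RVO eyes Gabrr1 was 5.18-fold (log2 fold change -2.37 ± 0.39, edgeR adjusted p = 9.86e-04) and Gabrr2 3.55-fold lower than in untreated eyes (-1.83 ± 0.32, edgeR adjusted p = 0.00121). In control eyes they had -0.74 ± 0.06 and -0.33 ± 0.06, both called, and Gabrr2 was not called with libraries scaled by their totals alone (-0.16). Gabrr3 was lower in RVO eyes (-1.48 ± 0.35) and had -0.21 ± 0.11 in control eyes, which did not pass. Its call in RVO eyes was lost with GC and length trends removed (-0.89).

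GABA-B receptors pair Gabbr1, which binds GABA, with Gabbr2, which couples to the G protein. Gabbr1 had 225.0, 219.0 and 214.1 CPM in untreated, 221.0, 220.9 and 216.3 in control and 143.4, 191.6 and 148.5 in RVO samples. Untreated and control samples overlapped, and RVO samples were lower. In RVO eyes Gabbr1 was 1.33-fold below untreated eyes (-0.41 ± 0.11, edgeR adjusted p = 0.00976) and had 0.02 ± 0.05 in control eyes. With libraries scaled by their totals alone, the value in RVO eyes was -0.20 (adjusted p = 0.108). Gabbr2 was 2.99-fold lower in RVO (-1.58 ± 0.20) than in untreated eyes, and control eyes had -0.58 ± 0.05, also called lower. The 2 genes of this obligate pair thus had different log2 fold changes, and the difference between them was not tested.

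Glycine receptors combine alpha subunits with Glrb, which anchors them to gephyrin. Glra3 had 47.0, 42.9 and 38.1 CPM in untreated, 21.5, 18.6 and 17.5 in control and 2.29, 10.9 and 4.40 in RVO samples, in 3 groups that did not overlap. Its log2 fold change of -2.86 ± 0.46 between RVO and untreated eyes (7.24-fold lower, edgeR adjusted p = 8.18e-04) was the lowest of the 50 receptor genes, and it had -1.13 ± 0.10 in control eyes (edgeR adjusted p = 1.02e-06). With GC and length trends removed, Glra3 had -1.58 in RVO eyes (adjusted p = 0.00702) and -0.17 in control eyes, where the call was lost. Glra2 (-1.92 ± 0.27), Glra1 (-1.90 ± 0.42) and Glrb (-1.55 ± 0.19) were lower in RVO eyes. In control eyes Glra2 (-0.53) and Glrb (-0.71) were lower and Glra1 (-0.38 ± 0.17) did not pass. With these trends removed, Glrb had -0.33 in control eyes and was still called, and Glra2 had -0.17 and was not. Glra4 did not pass in either comparison (-1.50 ± 0.46 in RVO and -0.45 ± 0.23 in control eyes).

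Summed over the 25 glutamate receptor genes, CPM were 928.8 to 999.3 in untreated, 792.6 to 810.0 in control and 265.2 to 552.7 in RVO samples. The 24 GABA and glycine receptor genes summed to 1478 to 1581, 1003 to 1032 and 345.6 to 693.2 CPM. In both sums the groups did not overlap, and RVO replicate 2 was the highest RVO sample. In RVO against untreated eyes, 16 of 25 glutamate and 21 of 24 GABA and glycine receptor genes were lower, beside 24.6% of all genes, with median log2 fold changes of -1.44 and -1.78. In control against untreated eyes, 12 of 25 and 17 of 24 were lower, beside 25.2% of all genes, with medians of -0.37 and -0.69, and the 4 genes called higher were all glutamate receptor genes. The difference between these families was not tested.

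**Figure D4:**
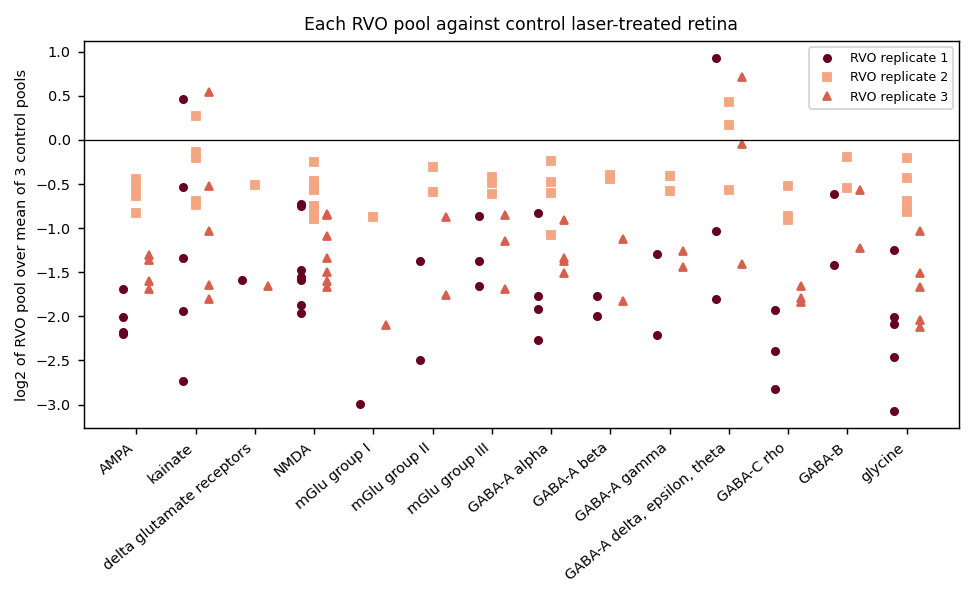
Log2 ratio of each RVO pool to the mean of the 3 control pools, 1 point for each of 44 receptor genes, by receptor class, with circles, squares and triangles for RVO replicates 1, 2 and 3. Replicate 2 lies nearest to 0 in most classes and replicate 1 farthest, with medians over all 50 receptor genes of -0.54 and -1.73, and the few points above 0 are in the kainate class and the class of delta, epsilon and theta subunits.

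Several receptor genes are neighbours on the chromosome, taken here as less than 2 Mb apart (positions from GENCODE vM21, GRCm38). In the cluster chr5:70751047-72149037 the log2 fold changes in RVO against untreated eyes were -1.95 for Gabrg1, -2.09 for Gabra2, -2.38 for Gabra4 and -1.77 for Gabrb1. On the X chromosome, at chrX:72255999-72842602, neighbours differed in sign: Gabre had 1.18, which did not pass the test, Gabra3 -2.04 and Gabrq -1.40. Gria1 and Glra1, which lie at chr11:55514238-57330244, shared a sign in RVO against untreated eyes (-0.91 and -1.90), where Gria1 did not pass the test. In control against untreated eyes they had 0.29 and -0.38, where Glra1 did not pass the test.

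Proteins that accompany these receptors were measured as lists chosen by function, whose counts stand beside 24.6% lower and 27.4% higher among all genes tested in RVO against untreated eyes. Of 13 genes of AMPA receptor auxiliary subunits, 10 were lower and 0 higher in RVO eyes against untreated eyes, with Cacng3 lowest at -1.54 ± 0.16. Both kainate auxiliary genes were lower, Neto1 with -2.53 ± 0.36 and Neto2 with -1.19 ± 0.16. Of 22 genes for scaffolds and adhesion proteins of glutamate synapses, 12 were lower and 2 higher. Lrrtm2, an adhesion protein, had -2.08 ± 0.25, and Homer3, which binds group I metabotropic receptors, had 0.66 ± 0.09, a call lost with GC and length trends removed. At inhibitory synapses, 4 of 11 genes were lower and 2 higher, which is near the share among all genes. Slitrk3, an adhesion protein, had -1.91 ± 0.32, and Gphn, which encodes the anchor gephyrin, had -0.83 ± 0.09. Gabarap, which binds gamma subunits and also serves in autophagy, was 1.92-fold higher in RVO eyes (0.94 ± 0.06). The medians of these 4 lists were -0.97, -1.86, -0.58 and -0.12, beside -1.62 for the receptor genes.

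Genes that make, release, take up or degrade the transmitters were mixed as well. Of 12 genes for glutamate handling, 4 were lower and 1 higher in RVO eyes against untreated eyes, which is near the share among all genes. Glul, the glutamine synthetase of Mueller cells, had 2505 to 2677 CPM in untreated, 879.9 to 1519 in control and 580.0 to 748.3 in RVO samples and was lower in RVO (-1.96 ± 0.10) and control eyes (-1.03 ± 0.14), and Slc1a1, a neuronal glutamate transporter, was higher in RVO eyes (0.41 ± 0.11), a call lost with DESeq2's size factors and when RVO replicate 3 or any 1 untreated sample was left out. Of 12 genes for GABA and glycine handling, 7 were lower and 1 higher. Gad2, which makes GABA, had -1.88 ± 0.27, and Gldc, which breaks down glycine, had 0.94 ± 0.12. The 2 chloride transporter genes Slc12a2 and Slc12a5, which set whether GABA excites or inhibits, did not pass the test in RVO against untreated eyes.

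Markers of retinal neurons moved in the same direction as the receptors. Among all genes tested in RVO against untreated eyes, 24.6% were lower and 27.4% higher. Of 9 bipolar cell markers (Grik1 left out), 8 were lower in RVO than in untreated eyes, with a median of -1.55 and summed levels of 1523 to 1606 CPM in untreated, 1155 to 1230 in control and 553.8 to 887.7 in RVO samples. Of 10 amacrine cell markers, 9 were lower (median -1.28), with sums of 1501 to 1632, 1200 to 1281 and 443.4 to 852.9 CPM. All 10 ganglion cell markers were lower (median -1.64), with sums of 1277 to 1358, 1037 to 1099 and 320.8 to 686.0 CPM. Of 5 horizontal cell markers, 3 were lower (median -2.22), with sums of 184.0 to 202.8, 142.3 to 144.9 and 57.8 to 99.3 CPM. All 8 rod markers were lower with a median of -0.80, and of 8 cone markers 6 were lower with a median of -1.24. In RVO eyes the 4 inner retinal sums were highest in replicate 2 and lowest in replicate 1, as most receptor genes were. None of these markers was at 0. The marker lists share genes with the handling lists above. Gad1, Gad2, Slc6a9 and Slc32a1 are amacrine cell markers and also in the list for GABA and glycine handling. Slc17a6, a ganglion cell marker, and Glul and Slc1a3, Mueller cell markers used below, are also in that for glutamate handling.

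Markers of neutrophils, monocytes and macrophages were higher, and those of other cells were mixed. The 8 neutrophil markers summed to 0.625 to 1.71 CPM in untreated, 9.12 to 25.2 in control and 48.0 to 106.3 in RVO samples, where replicate 2 was the lowest. The 8 monocyte and macrophage markers summed to 14.6 to 19.7, 50.8 to 69.8 and 115.8 to 135.9 CPM. In RVO against untreated eyes, all 6 neutrophil markers tested and 6 of 8 monocyte and macrophage markers were higher and 0 lower. The shares among all genes there were 27.4% higher and 24.6% lower. Of 8 microglia markers 6 were lower and 0 higher, with sums of 134.2 to 206.2 CPM in untreated, 77.4 to 86.3 in control and 47.3 to 76.1 in RVO samples. Of 8 endothelial markers 3 were higher and 0 lower, and of 8 pigment epithelium markers 0 were higher and 1 lower (Rpe65, -1.22 ± 0.24). In control against untreated eyes, 6 endothelial markers were higher, and 6 microglia and 3 pigment epithelium markers were lower. All genes had 27.2% higher and 25.2% lower there. Of 8 Mueller cell markers 3 were lower and 1 higher in RVO eyes, and of 4 astrocyte markers 2 were higher and 0 lower. Counts of 3 of 8 in these lists are near the shares among all genes. The part of these cell types and of the lens RNA in the receptor values was not tested.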

How the data were processed

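The 9 RNA samples were pools of 6 retinas: 3 of RVO eyes, 3 of control laser-treated eyes and 3 of untreated eyes. Libraries were stranded and read as single reads of 50 bases. Reads were mapped with STAR 2.5.2b and counted per gene with featureCounts (Subread 1.5.1), per the labels, on GRCm38 with Gencode vM11 gene models, and the authors deposited the raw counts without normalization. The strand setting and the handling of reads that fit several genes are not given in the sources used here, so values of close paralogs and of the 21 listed receptor genes whose exons overlap another gene are uncertain.

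Samples were grouped by their labels, and 0 columns were left unused. For each pair of groups, counts were filtered with filterByExpr and scaled by TMM factors of that pair. These were 0.911 to 1.09 (RVO and untreated), 0.926 to 1.07 (control and untreated) and 0.974 to 1.03 (RVO and control). Counts were tested with edgeR 4.0.16 (R 4.3.3, limma 3.58.1) by the quasi-likelihood test on all genes. Calls were made at a Benjamini-Hochberg adjusted p under 0.01. SEs were derived from the F statistic. Biological coefficients of variation were 13.8% (RVO and untreated), 7.49% (control and untreated) and 14.4% (RVO and control). CPM were scaled by TMM factors of all 9 samples. Exon lengths and positions came from GENCODE vM21 (GRCm38), where all 52 listed receptor genes matched 1 gene each. The 3 pools of a group were separate samples and differed by more than sampling noise. Floors cover counting error only. Promoters came from RefSeq, and motifs were searched as letters on both strands.

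Alternatives were other scalings, DESeq2 1.42.0, other filters, a fit of all 9 samples, offsets for GC content and length trends, a replicate block, a threshold of 0.05 and omission of each sample. The procedure was tested on simulated data. Genes named are, in each receptor class, those with the largest called rise and fall against untreated eyes and the highest level per length, 17 genes with a known part in the retina, and the largest called rise and fall in each of 7 function lists, besides those fitting a count of 5 or fewer. The other members are given with fewer values, and single results of 5 genes, which are part of the counts, medians and sums, are not reported here. Gphn was added after its values were seen. The receptor genes, the 7 function lists and the 14 marker lists were chosen with earlier results of these data known.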

Additional observations from a re-analysis of the deposited data

Results flagged for a closer look

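Gria1, Grin1, Gabrd and Grm4 had opposite signs in the 2 laser-treated groups, higher in control and lower in RVO eyes than in untreated eyes. The adjusted p was under 0.05 on both sides. RVO eyes were also below control eyes at an adjusted p under 0.05, as in 42 of the 50 receptor genes, of which 0 passed 0.01. RVO eyes against control eyes had a log2 fold change of -1.21 for Gria1 (edgeR adjusted p = 0.0341), -1.16 for Grin1 (edgeR adjusted p = 0.0202), -1.17 for Gabrd (edgeR adjusted p = 0.0207) and -1.01 for Grm4 (edgeR adjusted p = 0.0142). In all 4 genes each RVO sample was below each untreated sample, and each control sample was above. These 4 were singled out after their values were seen, among 11 receptor genes with opposite signs, of which 0 passed 0.01 in both comparisons. How many of all genes had opposite signs was not counted. Whether such genes are more frequent among the receptor genes than among all genes therefore cannot be said. The 2 comparisons share the untreated samples. With GC content and length trends removed, only Gria1 of the 4 kept its sign in control against untreated eyes (0.42), whereas Grin1 had -0.12, Gabrd -0.18 and Grm4 -0.26.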

How the results depend on the processing

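Of 50 receptor genes, those lower in RVO than in untreated eyes were 37, and 26 to 45 when each sample was left out in turn, with 1 higher throughout and a median of -2.03 to -1.42. The genes higher were 2 with library size only and 2 at an adjusted p under 0.05. For control against untreated eyes, leaving out a sample gave 26 to 31 lower and 1 to 3 higher, with a median of -0.57 to -0.46. Without untreated replicate 1, untreated replicate 2 or control replicate 1, 2 were higher, and without untreated replicate 3, 1 was. Library size only gave 7 higher and a median of -0.32. Removal of GC content and length trends gave 1 higher, 16 lower and a median of -0.18, and the same with the replicate block. A fit of all 9 samples, which share the wider spread of RVO samples, gave 2 higher and 7 lower, and a threshold of 0.05 gave 8 higher.

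For RVO against control eyes, 0 were lower at 0.01, and 1 with library size only, 37 with DESeq2, 35 without a filter on low counts, 36 in a fit of all 9 samples and 42 at 0.05. Leaving out a sample gave 0 to 44, where 44 was without RVO replicate 2 and 0 without each of the other 5, with 0 higher throughout and a median of -1.61 to -0.92. The level of Gabrr1 was 56.8 CPM per kb with library size only and 61.3 to 65.0 with an untreated sample left out. For the alternatives of all comparisons, shares of all genes are known only where given above, so the other counts cannot be set against them. The causes were not tested.

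Signs turned mainly in control against untreated eyes. With GC content and length trends removed, log2 fold changes were -0.12 (Grin1), -0.18 (Gabrd), 0.30 (Gabrg1), -0.19 (Grid2ip), 0.08 (Grin2b), -0.01 (Grik5), -0.66 (Grin2d), -0.39 (Grm2), 0.21 (Grik2), -0.03 (Grin2c), 0.28 (Gabrr3), 0.06 (Grik1), -0.26 (Grm4) and -0.09 (Gabbr1), and that of Grik5 in RVO against untreated eyes was -0.33. With the replicate block added, those of Grin2b, Grin2c and Grm4 were 0.09, -0.01 and -0.27 and the others were equal to these. Library size only gave 0.10 for Grik3 and 0.00 for Grik1 in control eyes and 0.18 for Grin3b in RVO eyes. Grin3b, at -0.03 in RVO eyes, also had 0.03 without a filter, 0.02 without RVO replicate 2 and -0.15 to 0.20 with each sample left out (0.20 without untreated replicate 3). In control eyes, Grid1 had -0.01 in the fit of all 9 samples and -0.09 to 0.07 with a sample left out (-0.08 without untreated replicate 1 and -0.09 without control replicate 1), and Grin2d had -0.03 to 0.12 and Gabbr1 -0.01 at the lowest, both without untreated replicate 3. Gabrq in RVO against control eyes had -0.53 to 0.05, the latter without RVO replicate 1. Over all comparisons of 55 named genes, 1893 values kept their direction and side of the threshold, 243 came to pass it, 139 ceased to pass it and 42 turned.

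Samples of different groups share replicate numbers, but the labels do not say that equal numbers are the same mice. Correlations of same-numbered samples were -0.05, 0.078 and 0.024 for RVO and untreated and 0.013, -0.028 and 0.051 for control and untreated samples. For RVO and control samples they were -0.131, -0.148 and 0.071. Unlike-numbered RVO and control samples had -0.202 (RVO replicate 3, control replicate 1) to 0.223 (RVO replicate 2, control replicate 1). With so few pools and no stated matching, these values cannot tell whether pools were paired by mouse. The replicate block was not used in the main results. With the block, 42 were lower and 1 higher in RVO, 29 lower and 4 higher in control against untreated eyes, and 0 in RVO against control eyes.

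Untreated libraries had the fewest counts, which limits the precision of genes such as Gabre, Gabrq, Gabra5, Grm3 and Grin3b.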
